A study of Homo sapiens with 6 samples.

Results

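Tetraspanins are small proteins that cross the membrane several times and gather integrins, proteases and immunoglobulin-type receptors into membrane microdomains. Megakaryocytes, the bone marrow cells that shed platelets, and the platelets themselves carry several of them on the surface and in granules. There they are known for their association with the fibrinogen receptor, with the collagen receptor GP6 and with the metalloprotease ADAM10. The 10 genes described here, CD9, CD37, CD53, CD63, CD81, CD82, CD151, TSPAN9, TSPAN32 and TSPAN33, were chosen by symbol as tetraspanins of megakaryocytes and platelets. These genes and the gene lists used below were chosen with earlier results of these data known. All 10 were found among the 58735 genes of the count table.

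Meg-01, a human cell line labelled as megakaryoblast, was left untreated (3 control libraries) or received 500 µM of the short-chain fatty acid propionate, given as its sodium salt and called C3 (3 libraries). The labels give 48 h of C3 and no time for the control libraries, while the methods of the study also name an earlier time. Whether the groups were matched in time is not known here. The 3 libraries of a group were described by the study as technical replicates, so p-values measure only the spread between these libraries. Control libraries 1, 2 and 3 held 19318595, 18050689 and 16159449 counts, and C3 libraries 1, 2 and 3 held 16513025, 18652292 and 22821722.

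The label of the cells was set against their markers first. Of 14 megakaryocyte and platelet genes, 13 had enough counts to be tested. The most abundant was ITGA2B, the alpha chain of the fibrinogen receptor, at an average of 119 RPKM (counts per kilobase of merged exons and per 1000000 counts of the library). GP6, SELP, GATA1 and FLI1 were also present at 1759 normalized counts or more in every library. PF4, a defining protein of platelet alpha granules, was not detected at this depth, with 0 counts in all 6 libraries, and PPBP, GP9 and TUBB1 stayed below 50 normalized counts. PF4 shares 52.1% of its exon bases, PPBP 34.7% and ITGB3 33.2% with another gene on the same strand, and how such reads were counted is not known here. At an adjusted p below 0.05, 3 of the 13 were lower (8.77% of all genes tested) and 1 was higher after C3 (11%). GP1BA changed by -0.49 on the log2 scale (standard error 0.0612, adjusted p = 2.2e-06 in edgeR's test), NFE2 by -0.38 and TUBB1 by -1.36. TUBB1 shares 35.5% of its exon bases with ATP5F1E on the other strand, so its counts are uncertain. The gene that was higher was ITGB3, the beta chain of the fibrinogen receptor, by 0.34 (adjusted p = 0.033), a call that ended with DESeq2 (0.11) and without any 1 of 5 libraries, all except C3 library 1 (0.067 to 0.17). In bulk RNA, fewer cells that express a gene and less RNA per cell cannot be told apart.

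The question for each tetraspanin was whether its RNA differed between C3-treated and control cells. Each gene was tested with edgeR over all 15078 genes that reached 10 counts in at least 3 libraries, and all 10 tetraspanins were among them. A first rule required an adjusted p below 0.01 together with a fold change above 1.3. By it 2 of the 10 were higher, CD9 and TSPAN33, against 5.05% of all genes tested, and 0 were lower, against 1.47%. The 0 was also obtained with DESeq2 and limma-voom. At an unadjusted p below 0.05 in edgeR, 4 of the 10 were lower and 4 were higher. Over the 15078 genes tested, 2314 were lower and 2533 higher by that limit. By an adjusted p below 0.05 alone, on which the words rose and fell rest below, 3 were higher (CD82 in addition), against 11% of genes. By the same rule 2 were lower, CD37 and CD53, against 8.77%. The C3 libraries lay wholly above the control libraries for 4 of the 10 (17.5% of genes) and wholly below for 3 (16.9%). The median log2 fold change of the 10 was -0.073, beside 0.002 over all genes tested. With library size alone as the scaling, these medians were -0.001 and 0.076. The median of the 10 was -0.124 without C3 library 1, -0.029 without C3 library 2 and -0.038 without control library 1.

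**Figure D1:**
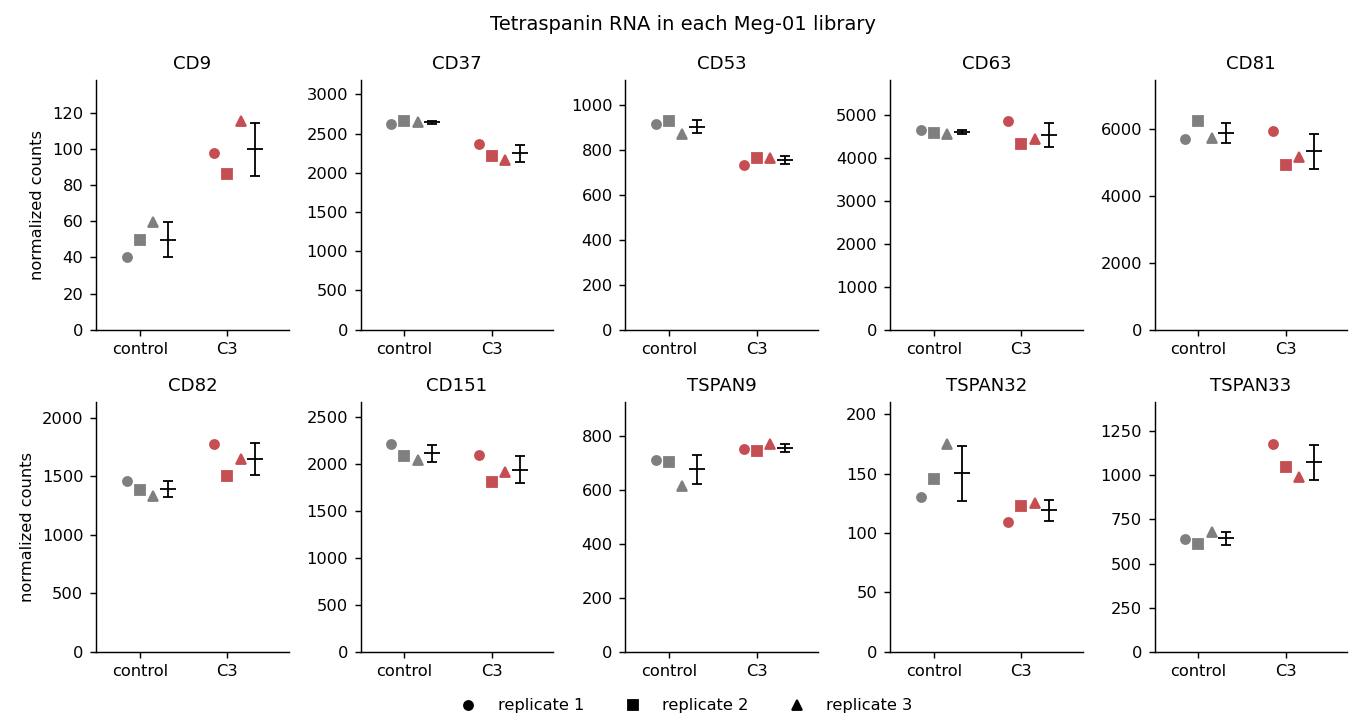
Normalized counts (counts set to the mean library size) of the 10 tetraspanin genes, with 1 panel per gene and its own axis from 0. Grey symbols are control libraries, red symbols C3 libraries, and the bar beside them is the mean with its SD (n = 3). TSPAN33 lay between 610 and 678 in control and between 991 and 1180 after C3.

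**Figure D2:**
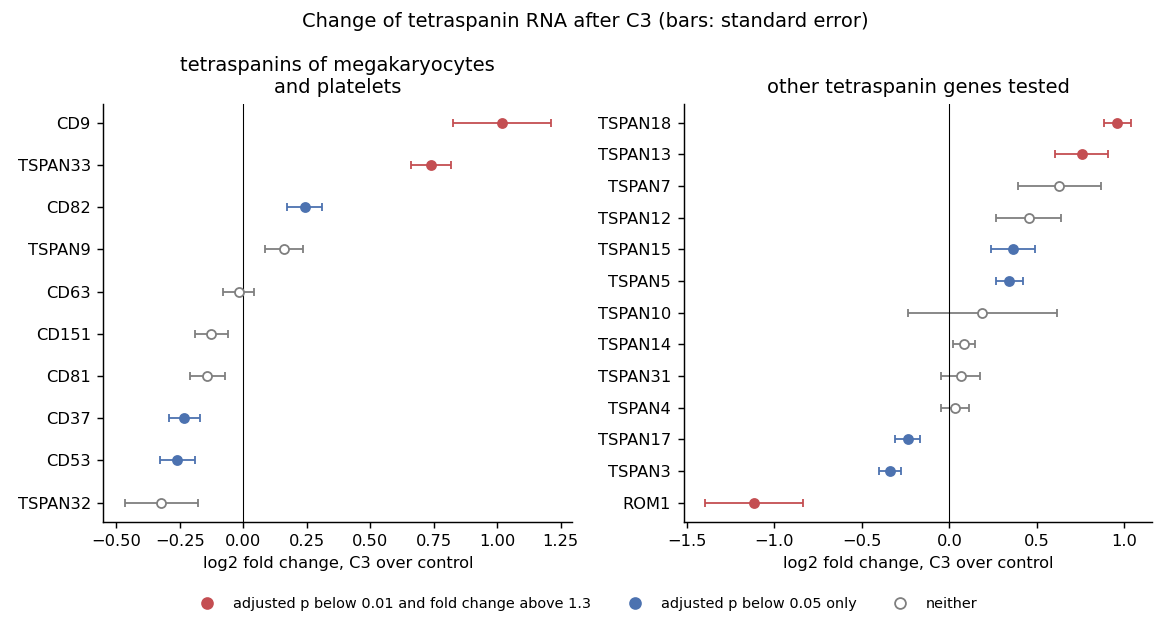
Log2 fold change of C3 over control for the 10 tetraspanins (left) and the 13 other tetraspanin genes tested (right), with standard errors from edgeR. Red points passed an adjusted p below 0.01 with a fold change above 1.3, blue points an adjusted p below 0.05 only, and open points neither. CD9 and TSPAN33 stand at 1.02 and 0.74.

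TSPAN33, a partner of the protease ADAM10 that is known from erythroid progenitors, showed the smallest p of the 10. Its normalized counts were 639, 610 and 678 in control libraries 1 to 3 and 1180, 1049 and 991 in C3 libraries 1 to 3. Every C3 library lay above every control library, and the gap between the groups was wider than the range within either. The means were 642 ± 34.4 and 1073 ± 96.9 (SD, n = 3 each), a fold change of 1.67. On the log2 scale TSPAN33 rose by 0.74 (standard error 0.0769, adjusted p = 1.6e-07 in edgeR's test). The call was kept, at an adjusted p of 6.4e-06 or less, when any single library was left out.

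CD9, which is abundant on the platelet surface and binds the immunoglobulin-type proteins IGSF8 and PTGFRN, was the lowest of the 10 in counts. The deposited counts themselves were 41, 47 and 50 in control cells and 86, 90 and 147 after C3. After normalization they stood at 40.2, 49.8 and 59.7 in control libraries and at 97.9, 86.1 and 115 in C3 libraries. No C3 library reached down to the highest control library. Mean levels were 49.9 ± 9.77 and 99.8 ± 14.7 (SD, n = 3 each), a fold change of 2.02. CD9 rose by 1.02 on the log2 scale (standard error 0.193, adjusted p = 4.8e-04 in edgeR's test). Counting error was a large part of this spread: at the mean count of the control libraries it amounts to 14.7% of the level, and the libraries varied by 19.6%. Leaving out single libraries gave log2 fold changes from 0.89 to 1.16, with adjusted p of 0.0091 or less.

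CD9 and TSPAN33 passed both limits, so the stretch of genome before their starts is shown from RefSeq (GRCh38.p14), whose promoter table matched 5 of the 10 genes (CD9, CD53, CD63, CD82 and TSPAN33). Both lie on the plus strand, CD9 on chromosome 12 from 6199715 to 6238271 and TSPAN33 on chromosome 7 from 129144707 to 129169699. The stretch for CD9, chr12:6200150-6200326, starts 250 bases before the principal start site at 6200400 and stops where exons of other transcripts begin. It is intronic for transcripts that start further upstream. The stretch for TSPAN33, chr7:129144457-129144706, holds the 250 bases before its start and lies outside its exons. Capitals mark the GC box GGGCGG, searched on both strands.
CD9: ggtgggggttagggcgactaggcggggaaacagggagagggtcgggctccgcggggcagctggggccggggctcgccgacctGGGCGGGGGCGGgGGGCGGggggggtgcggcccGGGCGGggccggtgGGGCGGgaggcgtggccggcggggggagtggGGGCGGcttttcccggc
TSPAN33: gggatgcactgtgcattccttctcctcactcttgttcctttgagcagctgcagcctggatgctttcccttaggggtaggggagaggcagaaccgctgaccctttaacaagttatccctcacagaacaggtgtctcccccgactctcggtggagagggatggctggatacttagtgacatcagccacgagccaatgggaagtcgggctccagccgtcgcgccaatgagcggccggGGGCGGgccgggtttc
The CD9 stretch held 6 GC boxes, some of them adjoining, and the TSPAN33 stretch held 1. Of 35116 RefSeq windows of 250 bases, 42.6% held at least 1 and 2.22% held at least 6. Over the full 250 bases, G and C made up 76.8% for CD9 and 59.6% for TSPAN33, beside a median of 58% over all windows. Other letters searched on both strands were in neither window. The GATA motif AGATAA was in 9.17% of all windows and the ETS motif CCGGAA in 14.5%. The RUNX motif TGTGGT was in 11% and the TATA motif TATAAA in 10.7%. These matches describe the letters only, and binding was not tested.

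No protein-coding neighbour of either gene was called. Within 100 kb of the start of TSPAN33, 3 protein-coding genes were tested and 0 had an adjusted p below 0.05 in edgeR, DESeq2 or limma-voom, although 2 had an unadjusted p below 0.05 in edgeR. Within the same distance of CD9, VWF was the 1 gene tested. VWF, the gene of von Willebrand factor, averaged 54.4 normalized counts in control and 33.8 after C3, with an adjusted p of 0.063.

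CD82, a tetraspanin known as a suppressor of metastasis, rose by a smaller amount. Its normalized counts were 1461, 1379 and 1330 in control libraries and 1779, 1505 and 1650 in C3 libraries. The groups did not overlap, but C3 library 2 came close to control library 1. CD82 rose by 0.24 on the log2 scale (standard error 0.0692, adjusted p = 0.015 in edgeR's test), a fold change of 1.18. The adjusted p was 0.067, 0.053 and 0.056 without control library 2, control library 3 and C3 library 3.

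CD37 and CD53, tetraspanins of leukocytes, were the members that fell. CD37 stood at 2627, 2656 and 2645 normalized counts in control libraries and at 2373, 2218 and 2158 in C3 libraries. The control libraries were nearly alike and all 3 C3 libraries lay below them. CD37 fell by 0.23 on the log2 scale (standard error 0.0618, adjusted p = 0.0084 in edgeR's test), a fold change of 0.851, which is short of the fold limit. CD53 stood at 913, 926 and 868 normalized counts in control libraries and at 733, 765 and 763 in C3 libraries. Again the groups did not overlap, and CD53 fell by 0.26 (standard error 0.0696, adjusted p = 0.0092 in edgeR's test). Both calls ended with library size alone as the scaling, at an adjusted p of 0.054 for CD37 and 0.082 for CD53. They also ended without control library 2 (0.051 for CD37, 0.063 for CD53), for CD37 without C3 library 3 (0.085) and for CD53 without control library 1 (0.051).

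CD63, the tetraspanin of lysosomes and platelet dense granules, had the log2 fold change nearest to 0, at -0.019 (standard error 0.0625, adjusted p = 0.87 in edgeR's test). Its normalized counts were 4636, 4577 and 4543 in control libraries and 4842, 4314 and 4424 after C3. The C3 libraries lay on both sides of the control libraries, with C3 library 1 above and the other two below. With library size alone the sign turned, to 0.053. CD81, a broadly expressed tetraspanin, had 5711, 6226 and 5724 normalized counts in control libraries and 5926, 4921 and 5166 in C3 libraries. C3 library 1 lay among the control libraries while the other two lay below all of them. The log2 fold change of CD81 was -0.14 (adjusted p = 0.16), and -0.22 (adjusted p = 0.0056) without C3 library 1. It was -0.084 (adjusted p = 0.52) without C3 library 2 and -0.099 (adjusted p = 0.50) without control library 2. CD151, the tetraspanin best known for binding laminin receptors, had 2221, 2088 and 2044 normalized counts in control libraries and 2096, 1809 and 1921 in C3 libraries. CD151 had the same arrangement as CD81, with C3 library 1 among the control libraries and the others below them. Its log2 fold change was -0.13 (adjusted p = 0.19), and -0.18 (adjusted p = 0.029) without C3 library 1. It was -0.075 (adjusted p = 0.56) without C3 library 2 and -0.078 (adjusted p = 0.53) without control library 1. With library size alone as the scaling, CD81 stood at -0.071 (adjusted p = 0.46 in edgeR's test) and CD151 at -0.054 (adjusted p = 0.61). The values of CD81 and CD151 thus rest on single libraries and on the scaling.

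TSPAN9, found in megakaryocytes and platelets near GP6, and TSPAN32, a blood cell tetraspanin, did not pass the test although their groups did not overlap. TSPAN9 ranged from 615 to 710 normalized counts in control and from 745 to 773 after C3, with a log2 fold change of 0.16 (adjusted p = 0.14). With library size alone its log2 fold change was 0.23 (adjusted p = 0.041), and without control library 3 it was 0.098 (adjusted p = 0.41). TSPAN32 ranged from 130 to 176 normalized counts in control and from 109 to 126 after C3. The change of TSPAN32 on the log2 scale was -0.32, with a standard error of 0.144 (adjusted p = 0.12), and -0.20 (adjusted p = 0.40) without control library 3.

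Levels of different genes were compared per exon length, in RPKM. CD63 led at 102 ± 1.04 RPKM in control cells and 100 ± 6.17 after C3 (SD, n = 3). In control cells CD81 (39.6 RPKM), CD37 (34.1), CD151 (29.2), CD53 (22.5) and CD82 (18.5) came next. TSPAN33 (9.77 RPKM), TSPAN9 (5.27), TSPAN32 (2.13) and CD9 (0.46) stood at the low end, so the member with the greatest fold change was the scarcest. No neighbours in this order overlapped in the control libraries. After C3 the order kept all places except that CD82 (21.9 RPKM) stood above CD53 (18.8), an order that depends on the length used (below). The C3 libraries of CD37 and CD151 overlapped, at means of 29.0 and 26.8 RPKM.

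As a share of the summed RPKM of the 10 genes, CD63 held 38.6% ± 0.319 in control cells and 39.0% ± 0.071 after C3 (SD, n = 3). TSPAN33 held 3.66%, 3.50% and 3.98% in control libraries and 6.53%, 6.50% and 5.98% in C3 libraries. Its share was higher in every C3 library, by 2.62 percentage points on average. The share of CD82 went from 7.02% to 8.48% and that of CD9 from 0.175% to 0.357%. CD37 went from 13.0% to 11.3%, CD53 from 8.55% to 7.32%, CD81 from 15.0% to 13.9% and CD151 from 11.1% to 10.4%. The sum itself was 263 ± 3.60 RPKM in control cells and 258 ± 15.4 after C3 (SD, n = 3). The C3 libraries lay on both sides of the control sums, with 275, 246 and 252 RPKM in libraries 1 to 3. With the length of the longest transcript in place of merged exons, CD63 held 44.4% after C3, CD151 ranked above CD81 in control cells and CD82 ranked above CD53 already in control cells (7.43% and 6.80%). After C3, CD82 (8.98%) then stood above CD37 (8.58%).

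The deposited counts could mix genes that share exons on opposite strands, since the strand setting is not given in the sources used here. In GENCODE release 44, CD37 shares 10.8% of its exon bases with genes on the other strand, among them TEAD2. CD82 shares 6.93%, CD151 6.6%, CD63 4.95%, TSPAN32 2.03% and CD81 0.376%. CD9, CD53, TSPAN9 and TSPAN33 share none. TEAD2 had at most 16 counts in any library, against at least 2085 for CD37. A gene without a symbol also faces CD37, and its counts are not given here. CD82-AS1 was at 0 in all 6 libraries. C11orf21, the gene facing TSPAN32, averaged 125.7 normalized counts in control and 103.4 after C3 (adjusted p = 0.23 in edgeR's test). CD63-AS1, facing CD63, averaged 37.65 and 30.46 (adjusted p = 0.45). POLR2L, the gene facing CD151, had 2498 normalized counts in control and 2503 after C3, so reads in the shared bases cannot be assigned.

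By position, 4 of the members, CD151, TSPAN32, CD81 and CD82, have another tetraspanin gene close by on chromosome 11. CD151 ends 2.98 kb before TSPAN4, TSPAN32 ends 58 kb before CD81 and CD82 ends 106 kb before TSPAN18. These neighbours were read side by side without a test between them. CD151 had a log2 fold change of -0.13 and TSPAN4 of 0.032. TSPAN32 and CD81 had -0.32 and -0.14. CD82 rose by 0.24 and TSPAN18 rose by 0.96.

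The rest of the family gives the setting for these members. Of 23 other tetraspanin genes, 13 were tested, 10 had too few counts and 5 of those 10 were at 0 in every library. By an adjusted p below 0.05, 4 were higher and 3 lower, against 11% and 8.77% of all genes tested. By both limits 2 were higher, TSPAN18 and TSPAN13, against 5.05%, and 1 was lower, ROM1, against 1.47%. Their median log2 fold change was 0.187, beside 0.002 over all genes tested. It rested on single libraries, at 0.359 without control library 2, 0.295 without C3 library 3 and 0.062 without control library 3. TSPAN18 had the smallest p of the family. Its normalized counts were 428, 423 and 405 in control libraries and 848, 838 and 763 in C3 libraries. The libraries of a group were close to each other and the groups far apart. TSPAN18 rose by 0.96 on the log2 scale (standard error 0.0781, adjusted p = 2.5e-09 in edgeR's test). TSPAN18 shares 1.26% of its exon bases with TP53I11 on the other strand. TP53I11 averaged 410 ± 43.2 normalized counts in control and 927 ± 39.8 after C3 (SD, n = 3; adjusted p = 1.9e-10 in edgeR's test), and reads in the shared bases cannot be assigned. TSPAN13 rose by 0.75, from 97.2 ± 6.89 to 163 ± 25.9 normalized counts (SD, n = 3; adjusted p = 7.0e-04 in edgeR's test). ROM1, known from the rims of photoreceptor discs, fell by 1.11 from only 42.7 ± 1.86 normalized counts (adjusted p = 0.0056 in edgeR's test). Its adjusted p was 0.021 with DESeq2 and 0.012 to 0.032 without any 1 of 5 libraries, all except C3 library 2, so it then no longer passed both limits. With a mean count of at least 50 it was not tested. ROM1 shares 30.1% of its exon bases with EML3 on the other strand, which stood at 1427 normalized counts in control and 1558 after C3.

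The most abundant of the others in control cells were TSPAN3 (11.8 RPKM), TSPAN4 (8.59 RPKM) and TSPAN17 (7.56 RPKM), all below CD82. TSPAN3 fell by 0.34 on the log2 scale (adjusted p = 4.2e-04) and TSPAN17 fell by 0.24 (adjusted p = 0.021). TSPAN4 did not pass the test (adjusted p = 0.83). TSPAN33 belongs to the tetraspanins that bind ADAM10, with TSPAN5, TSPAN10, TSPAN14, TSPAN15 and TSPAN17. This group was put together after the values had been seen. Within it TSPAN33 rose by 0.74, TSPAN5 rose by 0.34 (adjusted p = 0.0028) and TSPAN15 rose by 0.36 (adjusted p = 0.041). TSPAN17 was the member of this group that fell. The call of TSPAN15 ended with DESeq2 (adjusted p = 0.13) and that of TSPAN17 with library size alone (adjusted p = 0.13) or no count filter (0.056). For TSPAN15 the adjusted p was 0.15, 0.11, 0.078 and 0.20 without control library 1, control library 2, C3 library 1 and C3 library 3. For TSPAN17 it was 0.095, 0.11, 0.067 and 0.11 without control library 1, control library 2, C3 library 2 and C3 library 3. TSPAN14 had a log2 fold change of 0.085 (adjusted p = 0.38 in edgeR's test), and 0.158 (adjusted p = 0.073) with library size alone. TSPAN10 had at most 14 counts in any library. ADAM10 itself averaged 1982 ± 33.0 normalized counts in control and 2057 ± 141 after C3 (SD, n = 3), with a log2 fold change of 0.056 (adjusted p = 0.60). The log2 fold change of ADAM10 was 0.007 without C3 library 3, 0.106 without C3 library 1 and 0.131 with library size alone.

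Genes of proteins that tetraspanins bind were read from a list of 46, of which 40 were tested. This list was also chosen with earlier results of these data known, so its counts describe the list only. By an adjusted p below 0.05, 11 were higher and 2 lower, against 11% and 8.77% of all genes tested. By both limits 6 were higher and 0 were lower, against 5.05% and 1.47%. The median log2 fold change of the 40 was 0.074, and 0.149 with library size alone, beside 0.002 and 0.076 over all genes. The 0 was also obtained with DESeq2 and limma-voom. At an unadjusted p below 0.05 in edgeR, 2 partner genes were lower and 14 were higher. Over the 15078 genes tested, 2314 were lower and 2533 higher by that limit. The 6 hold 3 integrin alpha chains. ITGA6, a laminin receptor chain and partner of CD151, rose by 0.43 from 557 ± 62.3 normalized counts (SD, n = 3; adjusted p = 0.0011 in edgeR's test). ITGA7, another laminin receptor chain, rose by 1.10 from 26.4 ± 1.77 normalized counts (SD, n = 3; adjusted p = 0.0019). Its start lies 13.3 kb from that of CD63. ITGAL, a leukocyte integrin chain, rose by 1.02 (adjusted p = 5.9e-06). The limit of 0.01 was missed by ITGA6 without control library 1 (adjusted p = 0.017) or C3 library 3 (0.014) and by ITGA7 without control library 2 (0.012). With a mean count of at least 50, ITGA7 was not tested.

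IGSF3, an immunoglobulin-type relative of the CD9 partner IGSF8, had the smallest p of the partner genes. Its normalized counts were 868, 842 and 776 in control libraries and 1300, 1232 and 1327 in C3 libraries. No overlap was seen, and IGSF3 rose by 0.63 (standard error 0.0693, adjusted p = 3.3e-07 in edgeR's test). The peptidase genes DPP4 and ANPEP rose by 1.16 (adjusted p = 8.2e-05) and 0.42 (adjusted p = 1.9e-04). Without control library 3, ANPEP stood at 0.36, short of the fold limit. The CD9 partners IGSF8 and PTGFRN did not pass the test. IGSF8 averaged 558 normalized counts in control and 586 after C3, and PTGFRN averaged 1750 and 1753, with a sign that turned between settings. Of the integrin chains among the partner genes on a fixed list for naming, ITGB3 rose by 0.34 (adjusted p = 0.033). This call, described among the markers, ended with DESeq2 (0.11) and with single libraries left out. ITGA2B (adjusted p = 0.57) and ITGB1 (adjusted p = 0.39) did not pass.

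Genes with a pattern like that of TSPAN33 or of CD37 were sought over the 6 libraries among 11841 genes with at least 50 normalized counts on average. Likeness was the root mean square difference between the log2 ratios of each library to the gene's control mean. Fold changes near that of TSPAN33 or CD37 follow from this choice and are no separate result. Nearest to TSPAN33 were MYEOV (0.0274), CCN3 (0.0642) and RCOR2 (0.0669). Their log2 fold changes were 0.77, 0.68 and 0.76. Nearest to CD37 were HMCES (0.0151), YIPF3 (0.0157) and TRPC4AP (0.0169), with log2 fold changes of -0.24, -0.25 and -0.23.

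Markers of other blood and tissue cells were read beside these results. Of 6 erythroid genes 5 were tested, and 2 were higher at an adjusted p below 0.05 (11% of all genes tested), EPOR by 0.35 (adjusted p = 0.0046) and ALAS2 by 0.56 (adjusted p = 0.037). For ALAS2 the adjusted p was 0.13 with DESeq2, and 0.088, 0.16, 0.051 and 0.20 without control library 1, control library 3, C3 library 2 and C3 library 3. The summed level of the 6 was 34.7, 31.2 and 32.7 RPKM in control libraries and 38.3, 37.5 and 38.3 RPKM in C3 libraries, with KLF1 the most abundant. The sum was higher in each C3 library than in any control library, and its part in the level of TSPAN33 was not tested. Of 5 B cell genes and 4 T cell genes, 2 each were tested and none had an adjusted p below 0.05 in edgeR, DESeq2 or limma-voom, or an unadjusted p below 0.05 in edgeR. MS4A1 was at 0 in every library, and CD3G had at most 1 count. The summed B cell level was between 2.39 and 3.39 RPKM and the T cell level between 0.988 and 1.48 RPKM over the 6 libraries, led by CD79A and CD2.

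Of 5 monocyte genes 2 were tested, FCGR3A was at 0 and CD14 had at most 6 counts. LYZ, the most abundant, changed by -0.51 (adjusted p = 4.7e-05) and shares 34.7% of its exon bases with a gene on the other strand. The other gene tested, CSF1R, averaged 85.2 normalized counts in control and 102 after C3 (adjusted p = 0.28), and CD68 had at most 8 counts. The sum of the 5, most of it LYZ, went from 19.8, 19.9 and 20.7 RPKM in control libraries to 14.3, 14.8 and 15.0 in C3 libraries. Of 4 granulocyte genes 2 were tested and none was called at an adjusted p below 0.05 in edgeR, DESeq2 or limma-voom, or at an unadjusted p below 0.05 in edgeR. MPO led, at sums between 2.24 and 3.09 RPKM, and ELANE had at most 1 count. Of 4 fibroblast genes all passed the count filter. LUM, the most abundant, changed by -0.66 (adjusted p = 6.4e-06). COL1A1 had 6, 5 and 2 counts in control libraries and 12, 11 and 34 in C3 libraries, and reached the count filter only through the C3 group, so its test is not used here. The fibroblast sum was 13.3, 13.6 and 16.6 RPKM in control libraries and 9.82, 9.26 and 9.03 in C3 libraries. COL3A1 averaged 18.3 and 22.4 normalized counts (adjusted p = 0.55) and DCN 9.52 and 17.6 (adjusted p = 0.17), so the fall in the sum was that of LUM. The part of either list in the results of CD37 and CD53 was not tested.

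**Figure D3:**
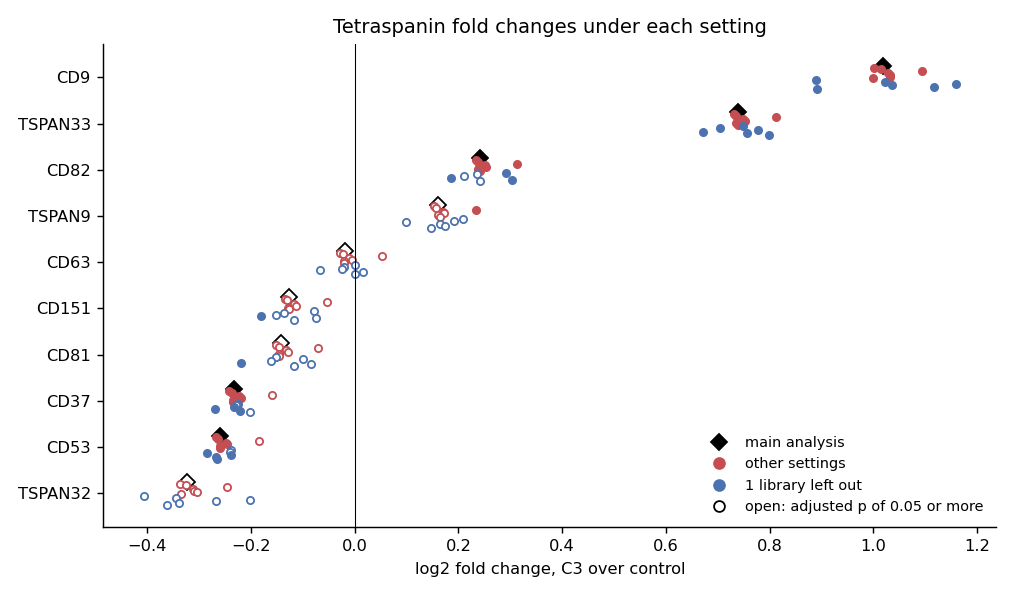
Log2 fold change of each of the 10 tetraspanins under the main settings (black diamond), 7 other settings (red) and 6 fits with 1 library left out (blue). Open symbols had an adjusted p of 0.05 or more. CD9 and TSPAN33 stay at 0.67 or above, and CD63 lies on both sides of 0.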

How the data were processed

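RNA of Meg-01 cells, 3 control and 3 C3 libraries, was read from a table of counts that the authors deposited, whole numbers per Ensembl gene without normalization. The processing notes of the submitters name fastp, STAR 2.6.1d, featureCounts 1.5.0-p3, DESeq2 and the build GRCh38. Neither the strand setting nor the annotation is named there. Columns were assigned to libraries by their names and sample titles. Symbols and exon lengths came from GENCODE release 44, which matched 58207 of 58735 gene identifiers.

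Genes with 10 counts in at least 3 libraries were tested with edgeR 4.0.16 (R 4.3.3; TMM normalization, quasi-likelihood F test, group as the only term), with p-values adjusted after Benjamini and Hochberg over all 15078. Each count was divided by its library's effective size and multiplied by the mean effective size to give normalized counts. RPKM divides by merged exon length and effective library size. A rise or fall rests on an adjusted p below 0.05. No libraries of a group agreed within counting noise. The chi-square per degree of freedom, larger with more disagreement, was 2.44 for control libraries 1 and 2. It was 8.38 and 5.4 for the pairs with control library 3. For C3 libraries 2 and 3 it was 2.92, and for the pairs with C3 library 1 it was 7.64 and 6.68. Totals lay between 16159449 and 22821722 counts. Among the 10 tetraspanins, counting error limits CD9 and TSPAN32 the most.

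Alternatives were DESeq2 1.42.0, limma-voom (limma 3.58.1), a replicate block, RLE factors, a mean count of at least 50 or no filter, scaling by library size alone, each library left out in turn and the longest transcript as length. The genes named are the 10 tetraspanins, other tetraspanins with an adjusted p below 0.05 or among the 3 most abundant in control cells, partner genes passing both limits and 6 fixed partners, genes of like pattern, markers and neighbours within 100 kb. TSPAN10, TSPAN14, the genes sharing exons and the markers given with values were named after their values were seen. The members and lists were chosen with earlier results of these data known. Protein sequences were not used here.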

Additional observations from a re-analysis of the deposited data

How the results depend on the processing

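Under all 13 alternatives CD9 and TSPAN33 stayed higher at an adjusted p below 0.01 and a fold change above 1.3, so the number of tetraspanins higher by that rule was 2 throughout and the number lower was 0. At an adjusted p below 0.05, the number lower was 2, but 0 with library size alone, which raises the median log2 fold change of all genes to 0.076, and between 0 and 4 with single libraries left out. It was 0 without control replicate 2, 1 without control replicate 1 or C3 replicate 3, and 4 without C3 replicate 1. The number higher was 3, 4 with library size alone, and between 2 and 3 with single libraries left out. Of the 13 other tetraspanins and 40 partner genes tested, 20 had an adjusted p below 0.05, higher or lower. Over all genes tested, 11% were higher and 8.77% lower by this limit. With single libraries left out, the number from these lists was between 13 and 21 (13 without control replicate 2 or without C3 replicate 3). The log2 fold change of CD63 was 0.053 with library size alone and between -0.067 and 0.017 with single libraries left out, that of TSPAN4 was between -0.074 (without C3 replicate 1) and 0.102, and that of ITGA2B was 0.012 with library size alone. PTGFRN, whose adjusted p in the main analysis was 1, stood at 0.072 with library size alone, 0.009 with no count filter, 0.013 with a mean count of at least 50, 0.001 with limma-voom, 0.005 with the replicate block and between -0.066 and 0.077 with single libraries left out. The cause of these shifts was not tested. Over 45 named genes and 582 values, 525 kept their direction and side of the 0.05 threshold, 39 lost it, 3 gained it and 15 turned in sign, most of them those of PTGFRN. Same-numbered libraries did not deviate together (correlations of 0.0123, -0.042 and 0.0297 over 15078 genes), and not every library correlated best with its own number, so the numbers name libraries only. With the replicate number as a block, no call at 0.05 among the 45 genes changed. The numbers of the 10 tetraspanins were again 2 higher and 0 lower by both limits, and 3 higher and 2 lower at an adjusted p below 0.05. Among the other tetraspanins and partner genes the number was 21 in place of 20. Among the 10 tetraspanins depth limits CD9 most, at 41 counts in control library 1.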
